A study of Mus musculus with 10 samples.

Results

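Interferon-stimulated antiviral genes are the genes that cells switch on when an interferon binds its receptor, and 44 of them were followed in the pancreas of newborn mice that express IL-23. They were chosen by gene symbol, from a list set with earlier results of these data known. All 44 were found among the 24062 genes listed in each library. RNA was taken from the whole pancreas at postnatal day 5 (P5) in 5 replicates of each genotype, WT and KSR23, all on the C57BL/6 strain and with 1 library each. KSR23 mice carry an IL-23 cassette, encoding its p19 and p40 subunits, in the ROSA26 locus behind a floxed stop signal, and a K14-cre transgene that removes the stop, so that IL-23 is made constitutively by K14+ cells such as keratinocytes and not by a pancreas-specific promoter. The controls were littermates by the study's account and are labelled wild type. The labels name no treatment, nor the sex of the mice or whether animals were pooled, so p-values measure the spread between these samples. The study asked how the pancreas of growth-retarded KSR23 newborns differed from that of controls, and the comparison here concerns the genes that answer interferon.

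Type I and type III interferons signal through the kinases JAK1 and TYK2 to a complex that contains STAT2 and IRF9 and binds the interferon-stimulated response element (ISRE) in the promoters of antiviral genes. Interferon gamma instead acts mainly through the gamma-activated site (GAS), and it induces IRF1, which in turn binds ISRE-like sites. The products of these genes sense foreign nucleic acid, degrade or sequester viral RNA, block translation and release of virus, and attach the ubiquitin-like protein ISG15 to other proteins. IL-22, which acts on epithelial cells that carry its receptor, signals mainly through STAT3.

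Gene counts totalled 16715976 to 57784136 per library. Levels are given as CPM, counts scaled to a library of 1000000, and 3 counts correspond to 0.0536 to 0.168 CPM, a floor that covers counting error only. Pancreatic acinar cells were plainly present, as 9 of their markers summed to between 152700 and 169900 CPM in WT mice and between 115400 and 139400 CPM in KSR23 mice. Some libraries stood apart. KSR23 replicate 3, the smallest library, held 442 CPM over 9 neutrophil markers, against 48.0 to 105 CPM in the other KSR23 mice and 14.1 to 45.1 CPM in WT mice. WT replicates 1 and 2 held 692 and 729 CPM of Reg3b, an antimicrobial lectin induced by IL-22, against 4.73 to 14.6 CPM in the other WT mice and 14210 to 29260 CPM in KSR23 mice. The summed level of 10 macrophage markers ranged from 418 to 516 CPM in WT mice and from 447 to 733 CPM in KSR23 mice, and 8 of them were called higher, 1 lower (C1qa) and 1 was not called (Mrc1). Of the 9 neutrophil markers 7 were called higher, and of 12 lymphocyte markers, 6 of which had enough counts to be tested, 1 was called higher (Cd3g) and 1 lower (Cd3e), with a sum of 8.13 to 10.3 CPM in WT mice and 6.57 to 9.51 CPM in KSR23 mice. The lower sum came from Cd3e, whose mean was 4.01 CPM in the WT group and 1.45 CPM in the KSR23 group. The untested markers Cd3d (16 counts over WT and 82 over KSR23 mice), Cd8a (0 and 11), Klrb1c (5 and 41), Nkg7 (38 and 90), Ms4a1 (62 and 107) and Ncr1 (6 and 11) had more counts in KSR23 mice. These counts are not scaled, and the median library held 29883015 counts in WT and 36744810 in KSR23 mice. In CPM only Cd3d and Cd8a were without overlap, and mean CPM in WT and KSR23 mice was 0.428 and 0.541 for Ms4a1 and 0.0417 and 0.0446 for Ncr1. Among 7 markers of plasmacytoid dendritic cells, the classical source of type I interferon, 4 were tested. Bst2, which is also one of the 44 members, was called higher, Klk1 lower, and Tcf4 and Ly6d were not called. The defining gene Siglech was not tested. It held 44 counts over all WT mice and 30 over all KSR23 mice, a mean of 0.3 and 0.173 CPM. The untested Ccr9 and Cox6a2 also had a lower mean CPM in KSR23 mice. The sum of the list was set by Klk1, which acinar cells also express. In the other marker lists, 3 of 3 pan-leukocyte genes were called higher, with sums of 44.2 to 55.7 CPM in WT mice and 61.7 to 104 CPM in KSR23 mice, 5 of 6 duct genes were higher, 5 of 6 islet genes and 7 of 9 acinar genes were lower, 1 of 5 endothelial genes was higher and 2 were lower, 1 of 6 fibroblast genes was higher, and neither tested erythroid gene was called, 4 globin genes being at 0 in every library. Of all 13882 genes tested, 16.2% were called higher and 14.8% lower in KSR23 mice, by the test described below. The part of the listed cell types in the results that follow was not tested. In whole tissue more cells of a type and more RNA per cell cannot be told apart.

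Most interferon-stimulated genes were higher in the pancreas of KSR23 mice, and the size of the rise differed widely between them. Of the 44 genes, 41 had at least 5 counts in every library and were tested, and Oas3, Mx1 and Mx2 were below that limit. By edgeR's quasi-likelihood F test, with p adjusted by Benjamini-Hochberg over all 13882 genes tested, 31 members were called higher at an adjusted p under 0.05, or 75.6% of those tested, where 16.2% of all genes were. The only member called lower was Cmpk2, where 14.8% of all genes were called lower, and 9 members were not called. A log2 fold change (FC) over 1 together with the adjusted p was reached by 15 members, or 36.6%, against 2.95% of all genes. The median log2 FC was 0.87 over the tested members and -0.01 over all genes. In 24 of the 41, or 58.5%, every KSR23 mouse lay above every WT mouse, which held for 10.7% of all genes. As the list was set with earlier results of these data known, these shares describe its members and are not a test. With WT replicates 1 and 2 left out, 27 members were called higher, 1 was called lower and the median was 0.76. In that fit 1785 of 13982 genes were called higher and 1536 lower, against 2250 and 2049 of 13882 in the main fit. Without KSR23 replicate 3, 31 members were called higher and 2 lower, beside 2204 and 1969 of 14036 genes. With libraries scaled by their total alone, 33 members were called higher and 1 lower, beside 3075 and 1161 of 13882 genes. The share of all calls that were higher moved from 52.3% to 72.6% with that scaling.

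**Figure D1:**
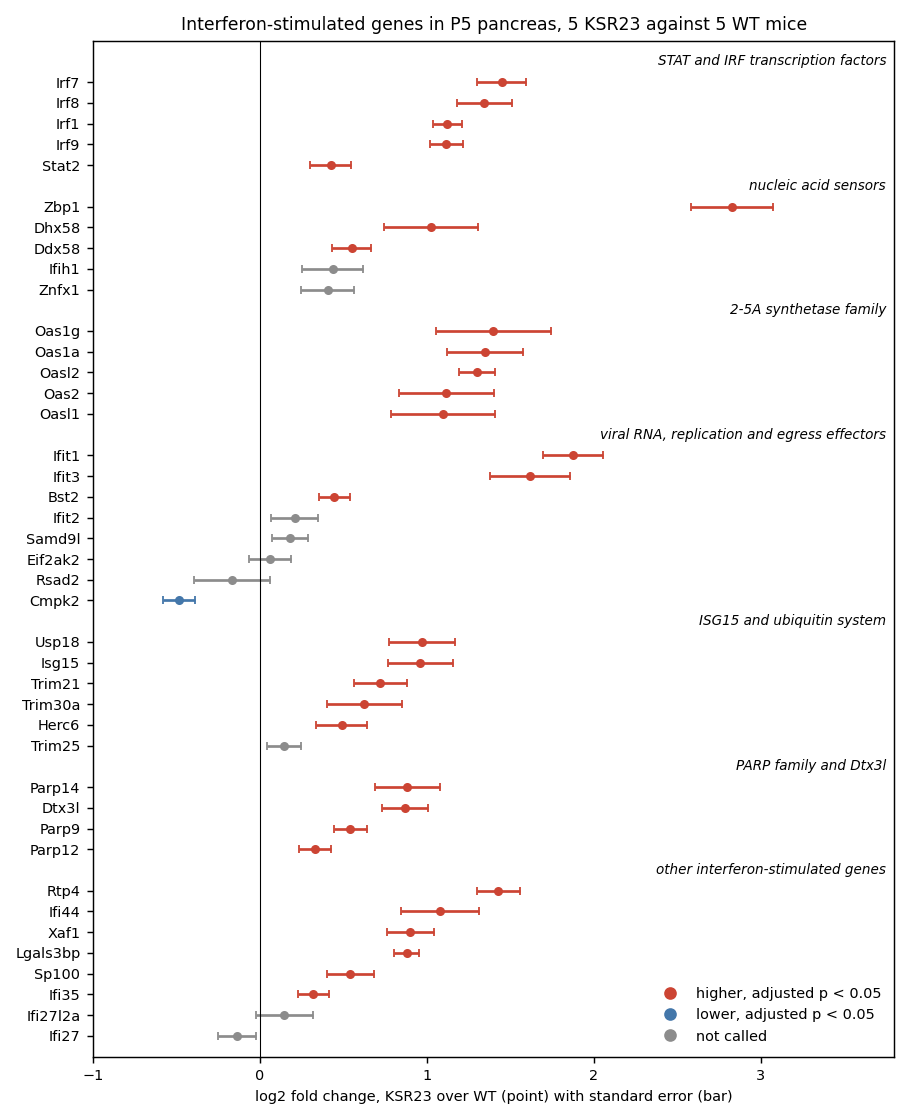
Log2 fold change of KSR23 over WT for each of the 41 tested members (points), with its standard error (bars), grouped by role. Zbp1 lies farthest to the right at 2.83, Cmpk2 alone is called lower at -0.49, and the grey points are the 9 members that were not called.

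Promoters were compared through the RefSeq sequence of 250 bases before to 50 bases after each annotated start (GRCm38.p6), which was held for 33 of the 44 genes. The ISRE core was searched as GAAANNGAAA on both strands, and the GAS core as TTCNNNGAA, which reads the same on both strands. The ISRE core occurred in 14 of the 33 genes (42.4%), against 3.99% of the 27025 genes in the table, and the GAS core in 7 (21.2%), against 9.55%. An ISRE core was held by 10 of 24 called higher and 3 of 8 other tested members with a sequence. For the GAS core these were 5 of 24 and 2 of 8. A match is a string of letters and not a measured binding site.

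The stretches below show these motifs in genes called higher and in Rsad2, which was not called, beside a stretch of Ifit2 without them, each 80 bases long, 5′ to 3′ on the strand of the gene and upstream of its start, with the motif in capitals. Ifit1 (chr19:34640759-34640838, plus strand) and Ifit3 (chr19:34583355-34583434, plus strand) each hold a pair of ISRE cores on the other strand, and rose most among the tested genes with an upstream ISRE core. Oas1g (chr5:120887614-120887693, minus strand) and Oas1a (chr5:120907526-120907605, minus strand) hold overlapping cores within 20 bases of the start on the strand of the gene. Isg15 (chr4:156200846-156200925, minus strand) holds 3 overlapping cores. Irf8 (chr8:120736160-120736239, plus strand) is shown for its pair of GAS cores. Rsad2 (chr12:26456528-26456607, minus strand) holds an ISRE core and was added after its value was seen. Ifit2 (chr19:34550564-34550643, plus strand) is shown over the same positions as Ifit1, in lower case throughout, as no motif was found in this stretch. The Ifit2 window holds a GAS core farther upstream, from -241 to -233 relative to the start.
Ifit1: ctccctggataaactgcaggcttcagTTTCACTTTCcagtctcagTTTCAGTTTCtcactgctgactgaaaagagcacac
Ifit3: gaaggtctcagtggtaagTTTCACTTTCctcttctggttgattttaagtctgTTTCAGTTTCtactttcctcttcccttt
Oas1g: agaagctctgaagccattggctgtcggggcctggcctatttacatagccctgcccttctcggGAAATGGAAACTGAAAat
Oas1a: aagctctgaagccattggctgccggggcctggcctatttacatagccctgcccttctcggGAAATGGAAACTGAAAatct
Isg15: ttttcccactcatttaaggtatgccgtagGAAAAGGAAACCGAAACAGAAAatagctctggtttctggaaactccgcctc
Irf8: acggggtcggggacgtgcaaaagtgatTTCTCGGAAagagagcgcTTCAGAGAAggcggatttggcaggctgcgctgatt
Rsad2: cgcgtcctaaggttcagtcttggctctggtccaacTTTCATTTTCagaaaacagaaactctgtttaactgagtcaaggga
Ifit2: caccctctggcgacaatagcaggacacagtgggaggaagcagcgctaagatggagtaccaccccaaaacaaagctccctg

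The 5 transcription factors of the list were all called higher, where 16.2% of all genes were. The level of 4 of them more than doubled, where 2.95% of all genes were called higher with a log2 FC over 1. Irf7, the factor that amplifies the production of type I interferon and is itself induced by it, was at 2.14, 2.99, 3.79, 2.87 and 3.54 CPM in WT replicates 1 to 5 and at 8.46, 7.88, 7.94, 8.52 and 8.91 CPM in KSR23 replicates 1 to 5. The KSR23 mice lay close together and all far above the WT mice, with a log2 FC of 1.45 ± 0.145 (SE) at an adjusted p = 5.25e-07. Irf8, a factor of myeloid and dendritic cell development that interferon gamma also induces, was at 5.57, 4.64, 3.899, 3.42 and 3.28 CPM in WT mice and 10.9, 10.1, 14.1, 9.98 and 8.18 CPM in KSR23 mice, which gave a log2 FC of 1.34 (adjusted p = 5.71e-06). Its highest value was in KSR23 replicate 3, the library with the most neutrophil RNA. Without that library the log2 FC of Irf8 was 1.23. The part of neutrophils in the rise of Irf8 was not tested.

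The genes lie on chromosome 7 (Irf7, 141262706 to 141266481), 8 (Irf8, 120736358 to 120756694), 11 (Irf1, 53770014 to 53778374), 14 (Irf9, 55603571 to 55610030) and 10 (Stat2, 128270559 to 128292849), in GENCODE M21 on GRCm38. Irf1, the factor induced by interferon gamma and by other inflammatory cytokines, had the smallest standard error of the 5. It was at 12.4, 13.4, 12.8, 11.3 and 13.04 CPM in WT mice and 29.2, 26.4, 29.9, 27.2 and 24.5 CPM in KSR23 mice, so that 12.6 ± 0.785 CPM rose to 27.4 ± 2.15 CPM (SD, n = 5 each), and the log2 FC was 1.12 ± 0.0839 (SE) at an adjusted p = 1.21e-08. Irf9, the DNA-binding subunit of the complex it forms with STAT2, was also called higher, without overlap. Its values were 8.52, 9.65, 8.71, 10.5 and 9.76 CPM in WT mice and 22.9, 21.99, 19.6, 19.7 and 18.1 CPM in KSR23 mice (log2 FC 1.12, adjusted p = 8.57e-08). Stat2, its partner in the complex, rose least, with 7.85, 9.51, 7.13, 10.8 and 9.31 CPM in WT mice and 12.5, 11.3, 9.68, 13.3 and 12.7 CPM in KSR23 mice (log2 FC 0.42, adjusted p = 0.0143). The lowest KSR23 mouse, replicate 3, overlapped with the highest WT mouse, and the call was lost with WT replicates 1 and 2 left out (adjusted p = 0.062).

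**Figure D2:**
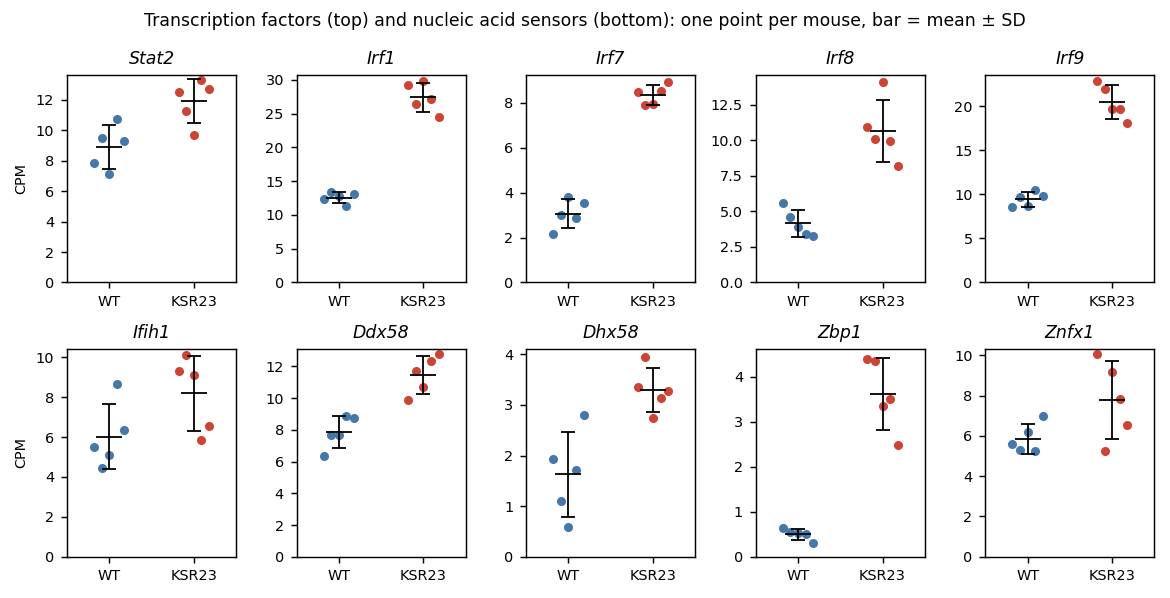
CPM of the 5 transcription factors (top) and the 5 nucleic acid sensors (bottom) in each mouse, with the mean and SD of each group of 5 as bars. The groups are apart for Irf1, Irf7, Irf8, Irf9, Ddx58 and Zbp1 and overlap for Stat2, Ifih1, Dhx58 and Znfx1.

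Among the sensors, which bind viral nucleic acid in the cytosol, 3 of 5 were called higher, where 16.2% of all genes were. The largest log2 FC among them was that of Zbp1. Zbp1 recognizes left-handed double-stranded nucleic acid and can trigger cell death by necroptosis. It was nearly silent in WT mice, with 0.631, 0.549, 0.527, 0.516 and 0.298 CPM, and was at 4.404, 4.36, 3.36, 3.51 and 2.48 CPM in KSR23 mice. In counts this was 8 to 18 per WT library and 60 to 175 per KSR23 library. The log2 FC of 2.83 (SE 0.245, adjusted p = 7.89e-08), a 7.11-fold change, was the largest of the 41 tested members and ranged from 2.69 to 2.997 in all 19 alternative fits.

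Ddx58, which encodes the RNA helicase RIG-I, was at 6.34, 7.66, 7.69, 8.87 and 8.76 CPM in WT mice and 9.87, 11.7, 10.7, 12.3 and 12.8 CPM in KSR23 mice, without overlap (log2 FC 0.55, adjusted p = 0.00156). Dhx58, encoding the related helicase LGP2, was at 1.93, 1.099, 0.597, 1.71 and 2.79 CPM in WT mice and 3.35, 3.94, 2.74, 3.14 and 3.27 CPM in KSR23 mice. Its WT values varied widely and the highest, in replicate 5, passed the lowest KSR23 value, and the log2 FC was 1.02 (adjusted p = 0.00993, and 0.0515 with WT replicates 1 and 2 left out). Ifih1, which encodes MDA5, a sensor of long double-stranded RNA, was at 5.503, 4.46, 5.09, 8.65 and 6.33 CPM in WT mice and 9.29, 10.1, 9.12, 5.83 and 6.54 CPM in KSR23 mice. KSR23 replicates 4 and 5 fell within the WT range, and Ifih1 was not called (log2 FC 0.44, SE 0.182, adjusted p = 0.0779), although it was without WT replicate 4 or KSR23 replicate 4 (adjusted p = 0.0177 and 0.0337) and with libraries scaled by their total alone (adjusted p = 0.0368). Znfx1, an RNA-binding helicase, was not called either, at 5.57, 5.29, 6.18, 5.23 and 6.97 CPM in WT mice and 10.1, 5.25, 9.17, 7.82 and 6.55 CPM in KSR23 mice (log2 FC 0.41, adjusted p = 0.0639). KSR23 replicates 2 and 5 lay within the WT range, and without replicate 2 the adjusted p was 0.0136. It was also called without WT replicate 5 (adjusted p = 0.0487), with libraries scaled by their total alone (adjusted p = 0.0383) and in DESeq2 (adjusted p = 0.0468).

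The oligoadenylate synthetases bind double-stranded RNA and make the second messenger that activates RNase L. All 5 tested members of the family were called higher with a log2 FC over 1, from 1.10 for Oasl1 to 1.40 for Oas1g. Among all genes tested, 2.95% were called higher with such a log2 FC. Oasl2, by far the most counted of them, was at 8.97, 8.35, 9.27, 7.07 and 6.93 CPM in WT mice and 21.3, 21.5, 20.1, 19.5 and 17.6 CPM in KSR23 mice. The mice of a group lay close together here, and the log2 FC was 1.30 (SE 0.105, adjusted p = 3.45e-08).

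Oas1a was at 1.19, 0.893, 1.19, 1.65 and 1.49 CPM in WT mice and 3.04, 4.65, 2.74, 2.37 and 3.501 CPM in KSR23 mice, which gave a log2 FC of 1.35 (adjusted p = 0.000199). Oas1g, at 0.2103, 0.2404, 0.176, 0.419 and 0.335 CPM in WT mice and 1.11, 0.859, 0.503, 0.523 and 0.643 CPM in KSR23 mice, rested on 5 to 13 counts per WT library (log2 FC 1.40, SE 0.346, adjusted p = 0.00532). Oas1a and Oas1g are near copies: 52.4% and 55.4% of the 75-base windows of their transcripts occur in no other gene, mostly because they occur in each other, and reads from shared windows align to more than 1 place, which leaves both levels uncertain. Oas2 (1.39 ± 0.636 to 2.98 ± 0.6895 CPM, SD, n = 5 each, adjusted p = 0.00642) and Oasl1 (0.716 ± 0.301 to 1.58 ± 0.603 CPM, adjusted p = 0.0125) overlapped between the groups in 1 KSR23 mouse each. In WT replicates 1 to 5 Oas3 had 4, 4, 21, 5 and 0 counts, and in KSR23 replicates 29, 15, 21, 11 and 26. Its groups overlapped through WT replicate 3, and the difference did not pass a two-sided exact permutation test (p = 0.0556, n = 5 each, smallest possible p 0.00794).

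The effectors that act on viral RNA, replication or release differed in direction among themselves. Of the 10 genes, 8 were tested, and 3 of those were called higher, 1 lower and 4 neither. The shares over all genes tested were 16.2% higher and 14.8% lower. Ifit1, which binds viral RNA that lacks the host cap methylation, was at 1.86, 2.095, 1.48, 1.19 and 1.53 CPM in WT mice and 7.298, 5.897, 5.09, 6.55 and 4.98 CPM in KSR23 mice. Every KSR23 mouse was above every WT mouse by more than a factor of 2, and the log2 FC of 1.87 (SE 0.1798, adjusted p = 3.04e-07) ranked behind that of Zbp1. Ifit3 was at 1.02, 1.03, 1.83, 1.74 and 1.56 CPM in WT mice and 6.44, 3.88, 3.804, 5.08 and 2.82 CPM in KSR23 mice (log2 FC 1.62, adjusted p = 5.44e-05), with 58.9% of its windows unique because of its copy Ifit3b. Ifit2, of the same family, was at 5.82, 7.11, 4.67, 6.65 and 6.18 CPM in WT mice and 8.51, 7.94, 6.66, 6.299 and 5.75 CPM in KSR23 mice. Only KSR23 replicates 1 and 2 exceeded the WT range, and Ifit2 was not called in any of the 20 fits, the main one included (log2 FC 0.21, SE 0.143, adjusted p = 0.292). Whether Ifit2 and its neighbours differed from each other in their response was not tested.

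Cmpk2 fell and its neighbour Rsad2 was not called. Cmpk2, a mitochondrial nucleotide kinase gene that is co-induced with Rsad2 in antiviral responses, was at 14.7, 13.4, 12.8, 13.5 and 13.9 CPM in WT mice and 9.91, 10.1, 11.3, 8.62 and 9.07 CPM in KSR23 mice. All 5 KSR23 mice were below all WT mice, a log2 FC of -0.49 ± 0.0977 (SE) at an adjusted p = 0.00105, and the call held in all 19 alternative fits. Rsad2, which encodes viperin, an enzyme that makes a chain-terminating nucleotide, was at 8.55, 9.82, 6.71, 10.3 and 7.08 CPM in WT mice and 6.29, 6.34, 14.9, 5.25 and 6.13 CPM in KSR23 mice. KSR23 replicates 1, 2, 4 and 5 lay below every WT mouse and replicate 3 lay above every WT mouse. With all mice the log2 FC was -0.17 (adjusted p = 0.619), and without KSR23 replicate 3 it was -0.50 and called lower (adjusted p = 0.0133).

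Of the remaining genes of this group, Bst2 was called higher and Eif2ak2 and Samd9l were not called. Bst2, encoding tetherin, which holds budding virus at the cell surface, was at 18.4, 15.7, 16.5, 18.97 and 16.6 CPM in WT mice and 22.7, 23.6, 19.5, 27.3 and 23.8 CPM in KSR23 mice (log2 FC 0.44, adjusted p = 0.00147). The 2 groups did not overlap although the difference was small. Eif2ak2, which encodes PKR, the kinase that stops translation when it meets double-stranded RNA, was at 6.24, 6.35, 6.39, 5.098 and 6.11 CPM in WT mice and 7.37, 6.96, 5.71, 5.65 and 5.73 CPM in KSR23 mice (log2 FC 0.06, SE 0.126, adjusted p = 0.757). Samd9l, a restriction factor that limits translation, was at 11.6, 14.2, 10.6, 11.9 and 14.1 CPM in WT mice and 13.7, 16.3, 12.8, 14.5 and 13.2 CPM in KSR23 mice (log2 FC 0.18, adjusted p = 0.213). The values of Eif2ak2 and Samd9l overlapped in most mice. Mx1 and Mx2 encode dynamin-like GTPases that block incoming virus, and C57BL/6 mice carry a defective Mx1. Mx1 held 1 to 9 counts per WT library and 9 to 22 per KSR23 library (two-sided exact permutation test, p = 0.0952, n = 5 each). Mx2 held 2 to 9 and 4 to 19 counts (two-sided exact permutation test, p = 0.103, n = 5 each).

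In the ISG15 and ubiquitin system, 5 of 6 genes were called higher, where 16.2% of all genes were. None had a log2 FC over 1. Isg15, the ubiquitin-like modifier, was at 1.75, 2.095, 1.33, 1.97 and 1.34 CPM in WT mice and 3.196, 2.76, 4.195, 3.69 and 2.88 CPM in KSR23 mice (log2 FC 0.96, SE 0.197, adjusted p = 0.00122). Usp18, the protease that removes ISG15 and also damps the type I interferon receptor, was at 2.14, 2.33, 2.85, 2.001 and 2.16 CPM in WT mice and 5.94, 4.03, 3.52, 5.73 and 3.16 CPM in KSR23 mice (log2 FC 0.97, adjusted p = 0.001197). The KSR23 values of both genes lay wholly above the WT values, and so did those of Trim21, an intracellular antibody receptor with ubiquitin ligase activity (3.37 to 5.78 CPM in WT mice and 6.498 to 8.86 CPM in KSR23 mice, adjusted p = 0.00224).

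Herc6, the main ISG15 ligase of the mouse, rose less, from 3.27 ± 0.545 to 4.59 ± 0.464 CPM (SD, n = 5 each, log2 FC 0.49, adjusted p = 0.0213), and lost its call without WT replicate 4 (adjusted p = 0.0547) and without WT replicates 1 and 2 (adjusted p = 0.105). Trim30a, a regulator of inflammatory signalling, rose from 2.96 ± 1.04 to 4.56 ± 1.04 CPM (log2 FC 0.63, adjusted p = 0.04004). Its call was lost in 7 of 19 alternative fits: without WT replicate 1, 2 or 5 (adjusted p = 0.0897, 0.102 and 0.0914), without KSR23 replicate 1, 2 or 4 (adjusted p = 0.0635, 0.0891 and 0.105) and without WT replicates 1 and 2 together (adjusted p = 0.253). Trim25, the ligase that activates RIG-I, was the most counted gene of the group, at 16.1, 17.4, 22.1, 21.9 and 22.5 CPM in WT mice and 23.9, 20.6, 21.3, 24.6 and 20.1 CPM in KSR23 mice. WT replicates 1 and 2 were the low ones, the other WT mice lay among the KSR23 mice, and Trim25 was not called (log2 FC 0.14, adjusted p = 0.308).

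The ADP-ribosyltransferase genes Parp9, Parp12 and Parp14 and Dtx3l, a ubiquitin ligase that forms a complex with PARP9, were all called higher, by modest amounts. The share called higher over all genes tested was 16.2%. Parp14 was at 1.33, 1.54, 2.002, 1.26 and 2.24 CPM in WT mice and 2.995, 3.08, 3.3, 3.34 and 2.75 CPM in KSR23 mice (log2 FC 0.88, adjusted p = 0.00234). Dtx3l was at 3.82, 4.71, 4.36, 4.03 and 4.099 CPM in WT mice and 8.15, 5.57, 8.34, 8.56 and 7.79 CPM in KSR23 mice (log2 FC 0.87, adjusted p = 0.000103). In both genes the groups were apart, although KSR23 replicate 2 was well below the other KSR23 mice for Dtx3l. Parp9 rose from 9.82 ± 0.573 to 14.3 ± 1.49 CPM (SD, n = 5 each, log2 FC 0.54, adjusted p = 0.000443), also without overlap. Parp9 and Dtx3l lie head to head on chromosome 16 and share 9.4% and 8.0% of their exon bases on opposite strands, so reads in that stretch may not be told apart, as the strand setting of the counting is not stated. Parp12 was at 14.7, 19.3, 15.1, 17.2 and 15.6 CPM in WT mice and 22.4, 18.6, 17.9, 22.5 and 21.1 CPM in KSR23 mice, and rose least (log2 FC 0.33, adjusted p = 0.0162), with overlapping groups.

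Of the 8 remaining interferon-stimulated genes, 6 were called higher without overlap between the groups and 2 were not called. Over all genes tested, 16.2% were called higher, and in 10.7% every KSR23 mouse lay above every WT mouse. Rtp4, a receptor transporter protein that also binds RNA, was at 4.07, 6.15, 5.901, 5.52 and 5.59 CPM in WT mice and 15.4, 18.02, 13.1, 12.6 and 14.1 CPM in KSR23 mice (log2 FC 1.43, SE 0.1298, adjusted p = 1.52e-07). Ifi44 was at 0.911, 0.996, 1.41, 1.13 and 1.23 CPM in WT mice and 2.94, 1.69, 2.797, 2.86 and 1.77 CPM in KSR23 mice (log2 FC 1.08, adjusted p = 0.00189). Lgals3bp, a secreted galectin-binding glycoprotein, was the most counted of all members, at 45.5, 45.6, 40.4, 38.9 and 38.8 CPM in WT mice and 85.5, 73.3, 70.99, 77.3 and 77.1 CPM in KSR23 mice (log2 FC 0.88, SE 0.0738, adjusted p = 5.24e-08). Each of these 3 genes separated the groups. Xaf1, a partner of the apoptosis inhibitor XIAP, rose from 4.19 ± 0.853 to 7.81 ± 0.746 CPM (SD, n = 5 each, adjusted p = 0.000101), Sp100, a nuclear body protein, from 8.45 ± 1.97 to 12.3 ± 1.22 CPM (adjusted p = 0.007304), and Ifi35 from 12.7 ± 1.02 to 15.8 ± 1.01 CPM (adjusted p = 0.0126). The genes of the small membrane proteins IFI27 and IFI27L2A were not called. Ifi27 was at 26.5, 21.2, 27.2, 23.8 and 19.7 CPM in WT mice and 16.7, 24.3, 22.4, 19.4 and 24.8 CPM in KSR23 mice (log2 FC -0.14, adjusted p = 0.387). Ifi27l2a was at 14.97, 9.204, 10.1, 10.9 and 10.4 CPM in WT mice and 11.2, 16.5, 9.398, 15.4 and 8.73 CPM in KSR23 mice (log2 FC 0.14, adjusted p = 0.5598).

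**Figure D3:**
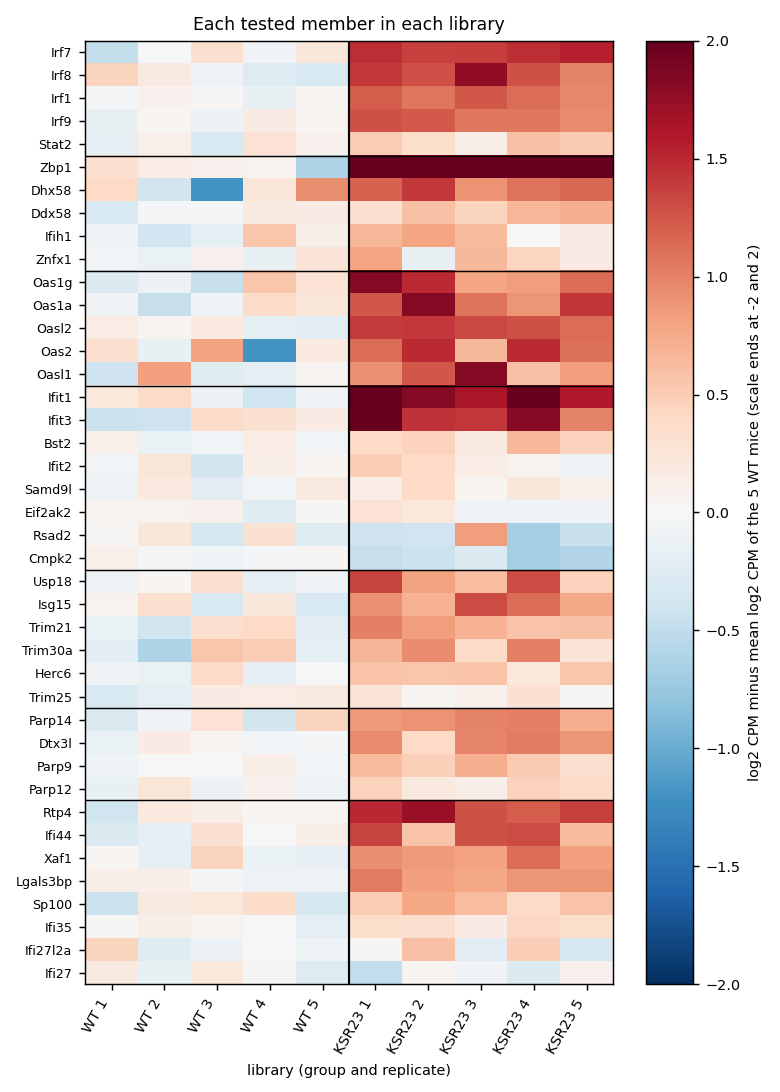
Log2 CPM of each tested member in each library, less the mean log2 CPM of the 5 WT mice for that gene (red above, blue below; the colour scale ends at -2 and 2). The KSR23 columns are red over most rows, Cmpk2 is blue in all 5, and Rsad2 is red in KSR23 replicate 3 and blue in the other 4.

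Several members are neighbours in the genome (GENCODE M21, GRCm38), and the calls of neighbours are given side by side. Ifit2 (chromosome 19, 34550694 to 34576419), Ifit3 (chromosome 19, 34583531 to 34588731) and Ifit1 (chromosome 19, 34640871 to 34650009) had a log2 FC of 0.21, 1.62 and 1.87. Rsad2 and Cmpk2 lie next to each other on chromosome 12 on opposite strands, from 26442746 to 26456452 and from 26469204 to 26479837, and neither rose. On chromosome 16 Parp14, Dtx3l and Parp9 lie between 35832874 and 35972605 and all 3 were called higher. The synthetase cluster on chromosome 5, with Oas2, Oas3, Oas1g and Oas1a between 120730333 and 120907521, was called higher in every member tested. Zbp1 lies on chromosome 2 from 173206612 to 173218923.

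Levels of different genes can be compared only per length, here as the mean CPM of a group divided by the kilobases of the gene's longest coding transcript. On this scale Ifi27 stood first in WT mice, with 24.2 CPM per kb, ahead of Ifi27l2a with 23.97, Bst2 with 21.7 and Lgals3bp with 17.9. In KSR23 mice the order of these 4 was Lgals3bp with 32.98 CPM per kb, Bst2 with 29.5, Ifi27l2a with 26.4 and Ifi27 with 22.04. Ifi27 and Ifi27l2a did not differ beyond their SD in WT mice. Among the factors, Irf1 was highest in each group, at 5.89 CPM per kb in WT mice and 12.8 in KSR23 mice. Zbp1 moved from rank 39 of 44, at 0.254 CPM per kb, to rank 28, at 1.82. Cmpk2 moved from rank 8, at 4.27 CPM per kb, to rank 17, at 3.06. Mx1, Mx2 and Oas3 held the last 3 places in each group, at no more than 0.131 CPM per kb.

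**Figure D4:**
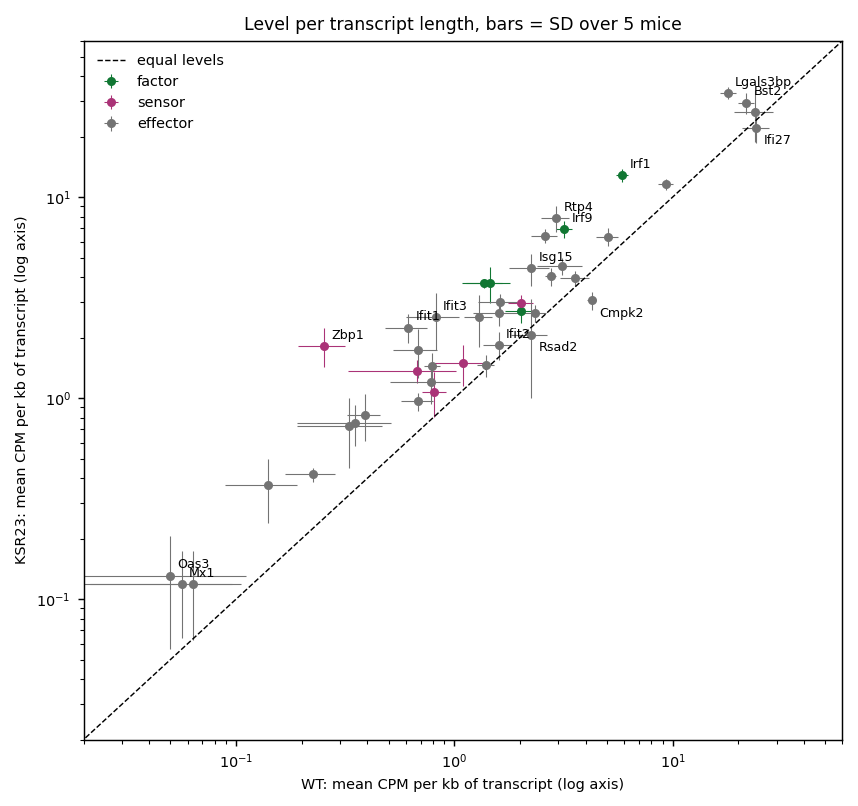
Mean CPM per kb of transcript in WT mice (x axis) and KSR23 mice (y axis) for all 44 members on log axes, with the SD over 5 mice as bars; a lower bar that would reach 0 runs to the edge. Zbp1 lies farthest above the dashed line of equal levels, while Cmpk2 lies below it with Rsad2 and Ifi27.

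The ligands that start the pathway were hardly counted in this tissue. Of 20 genes for type I and III interferons, 18 had no count in any of the 10 libraries, Ifnk had 6 counts over all WT mice and 0 over all KSR23 mice, and Ifnz had 2 and 1. For reads that can be counted, a 0 in a library allows up to 0.0536 to 0.168 CPM. A 0 can also come from the counting: the globin genes Hba-a1, Hba-a2, Hbb-bs and Hbb-bt were likewise at 0 in all 10 libraries, although Alas2, an erythroid gene, was at 19.05 to 75.9 CPM, and the floor sets no bound for such genes. The interferon alpha genes are near copies of each other, and whether their reads were counted was not tested. Ifng, the type II interferon, had 1 count over the WT mice and 6 over the KSR23 mice, which lay in 2 KSR23 libraries. The counts therefore give no level for most interferon genes. By the study's account, interferon gamma protein was elevated in the serum of KSR23 mice at P5. Its part in the values here was not tested.

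Of 7 receptor subunits, 6 were called higher with a log2 FC under 1, each with all KSR23 mice above all WT mice. Of all genes tested, 16.2% were called higher, and 10.7% had every KSR23 mouse above every WT mouse. Ifnar1 and Ifnar2, the type I interferon receptor, were at 34.4 to 35.3 and 21.1 to 24.6 CPM in WT mice and 37.1 to 44.9 and 28.4 to 32.3 CPM in KSR23 mice (log2 FC 0.22 and 0.40, adjusted p = 0.0221 and 0.000449). Ifngr1 and Ifngr2, the interferon gamma receptor, had log2 FC of 0.39 and 0.29 (adjusted p = 0.00164 and 0.00659). Ifnlr1, the specific chain of the type III receptor, was at 0.652 to 1.26 CPM in WT mice and 1.45 to 1.79 CPM in KSR23 mice (log2 FC 0.75, adjusted p = 0.0242). Il10rb, the chain that the type III interferon and IL-22 receptors share, had a log2 FC of 0.32 (adjusted p = 0.00168), while Il22ra1, the specific chain for IL-22, was not called (log2 FC -0.44, adjusted p = 0.0769).

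Among the kinases, signal transducers and inhibitors downstream of the receptors, Stat3, the main mediator of IL-22, was at 46.5, 50.9, 52.5, 54.7 and 60.7 CPM in WT mice and 134, 107, 112, 115 and 109 CPM in KSR23 mice (log2 FC 1.12, adjusted p = 7.31e-09). Socs3, an inhibitor that STAT3 induces, rose more than any tested member but Zbp1, with 8.74 to 11.8 CPM in WT mice and 46.9 to 91.4 CPM in KSR23 mice (log2 FC 2.65, adjusted p = 3.80e-10), and Socs1, another inhibitor of cytokine signalling, was not called (log2 FC 0.30, adjusted p = 0.251). Jak1 was called higher by a small amount (log2 FC 0.25, adjusted p = 0.0132). Jak2 and Tyk2 were not called and overlapped between the groups (log2 FC 0.15 and 0.28, adjusted p = 0.254 and 0.06).

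Upstream of interferon, 7 of 11 tested sensors, adaptors and kinases were called higher and none lower, against 16.2% and 14.8% of all genes. Tmem173, which encodes the adaptor STING, rose most, with 7.49 to 9.13 CPM in WT mice and 20.1 to 35.5 CPM in KSR23 mice (log2 FC 1.69, adjusted p = 1.68e-08), while Mb21d1, which encodes cGAS, the enzyme that makes the messenger for STING, was not called (log2 FC -0.12, adjusted p = 0.777). Myd88, the adaptor of most Toll-like receptors, had a log2 FC of 0.68 (adjusted p = 2.81e-05) and Tlr7, the sensor of single-stranded RNA, 0.76 (adjusted p = 0.04898). Ticam1, Ikbke and Irf5 had log2 FC of 0.55, 0.55 and 0.52 (adjusted p = 0.00819, 0.00582 and 0.0107). Of 12 genes known for induction by interferon gamma, 7 could be tested and 6 were called higher, where 16.2% of all genes were. Tap1, the peptide transporter of class I presentation, had a log2 FC of 1.52 (adjusted p = 1.19e-08), Psmb8 1.46 (3.66e-08), Irgm1 1.43 (3.45e-08), Psmb9 1.12 (1.52e-05), the chemokine Cxcl10 0.997 (0.01004) and Gbp2 0.94 (3.08e-06). The other 5 genes of the list were below the count limit. Nlrc5, the activator of class I genes, was at 0.129 to 0.386 CPM in WT mice and 1.48 to 3.24 CPM in KSR23 mice, with 32 and 376 counts in all and no overlap. Ciita, its class II counterpart, had 54 counts over the WT mice and 150 over the KSR23 mice, with overlap. The chemokines Cxcl9 and Cxcl11 had 1 count each over the WT mice and 18 and 8 over the KSR23 mice, and Ido1 had 2 and 11. These counts are not scaled for library size. Mean CPM in WT and KSR23 mice was 0.38 and 0.84 for Ciita and 0.00745 and 0.108 for Cxcl9. For Cxcl11 it was 0.00687 and 0.0465, and for Ido1 0.01405 and 0.0451.

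All 5 KSR23 mice took part in the rise. The median difference of the tested members from the WT mean was 0.91, 0.79, 0.73, 0.84 and 0.63 on the log2 scale in KSR23 replicates 1 to 5, and between -0.07 and 0.03 in WT mice, with 36 to 38 of the 41 members above the WT mean in every KSR23 mouse. KSR23 replicate 1 was the highest of its group in 13 of the 41 members and replicate 5 the lowest in 14. The 44 members summed to 502, 485, 469, 481 and 449 CPM in KSR23 replicates 1 to 5, the macrophage markers to 671, 724, 733, 689 and 447 CPM, and the neutrophil markers to 62.4, 51.2, 442, 48.0 and 105 CPM. KSR23 replicate 5 was the lowest of its group in the member sum, in the macrophage sum and in the pan-leukocyte sum, which was 61.7 CPM against 90.01 to 104 CPM in the other KSR23 mice. Its macrophage sum lay within the WT range of 418 to 516 CPM, but the single markers were divided: C1qb, C1qc, Fcgr1 and Cd68 lay above every WT mouse, at 74.3, 63.03, 3.66 and 15.9 CPM, while C1qa was below every WT mouse at 46.9 CPM and the other 5, Lyz2 among them, lay within the WT range. Its member sum was above the WT range of 306 to 323 CPM. The part of macrophages in the members' rise was not tested. WT replicates 1 and 2, the WT mice with more Reg3b, had member sums of 311 and 316 CPM, within the range of the other WT mice.

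**Figure D5:**
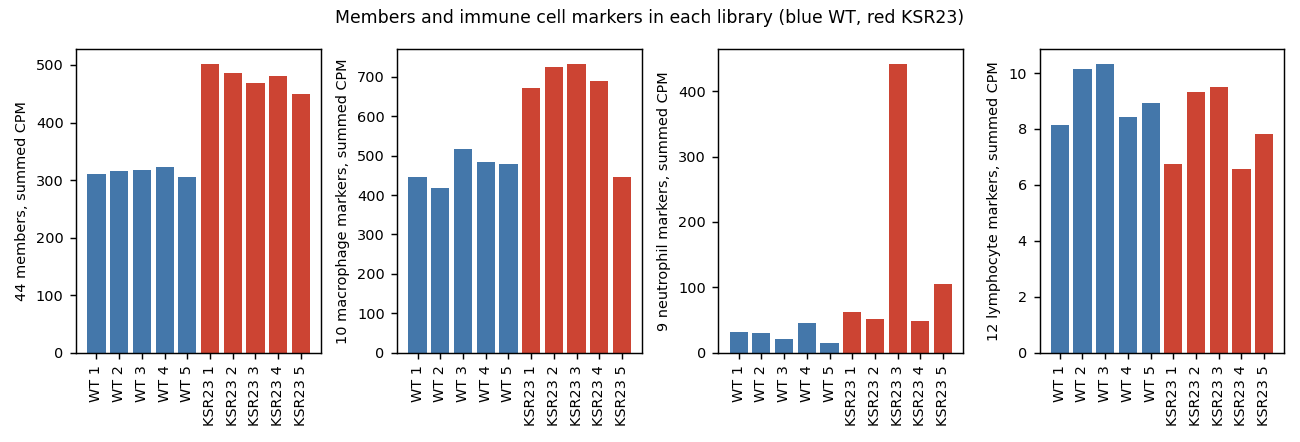
Summed CPM in each library, from left to right of the 44 members, 10 macrophage markers, 9 neutrophil markers and 12 lymphocyte markers (blue WT, red KSR23). The member sums are 306 to 323 CPM in WT mice and 449 to 502 CPM in KSR23 mice, while the neutrophil sum peaks at 442 CPM in KSR23 replicate 3 and KSR23 replicate 5 is the lowest of its group in the member sum and in the macrophage sum.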

How the data were processed

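Oligo-dT primed cDNA of whole pancreas RNA (SMART-Seq v4) was sequenced as single-end 75-base reads. Reads were mapped to mm10 with TopHat2 (2.1.0), and the authors deposited unnormalized counts for each protein-coding gene, made with HTSeq (0.6.1p1 in the submitters' processing notes) by strict intersection. The annotation and the strand setting are not given in the sources used here. No molecular identifiers are named, so PCR copies of a molecule count separately. The 5 rows of unassigned alignments in each file were not used.

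The 13882 of 24062 genes with 5 or more counts in all 10 libraries were tested. Groups, taken from the sample titles, were compared with edgeR 4.0.16 in R 4.3.3 (TMM scaling, quasi-likelihood F test, no covariate, Benjamini-Hochberg adjustment). The study's likelihood ratio test was an alternative. CPM values use TMM-scaled library sizes, log2 CPM a prior count of 2, and the SE is the size of the log2 FC over the square root of F. Members below the count limit were compared by a two-sided exact permutation test over 252 splits. Tested on simulated data for this comparison, with 13736 genes, the fit found 92.1% of genes changed by a log2 FC of 1 and 55.2% of those changed by 0.5. Other alternatives were DESeq2 1.42.0, different scalings and count limits, a replicate block, and mice left out. Libraries of a group differed beyond sampling noise, with a smallest chi-square of 11.4 per degree of freedom.

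All 44 members are named, with values in every sample for factors, sensors, members not called or called lower, and, in each effector group, the largest log2 FCs and the highest mean CPM. Rsad2's promoter was added after its value was seen. The members, pathway lists and marker lists were chosen with earlier results of these data known. A gene of the pathway lists is not reported here. Positions and transcript windows are from GENCODE M21 and promoters from RefSeq, both on GRCm38, of which mm10 is the UCSC name. The bases after the start in 31 of 40 promoter windows of members occurred in a GENCODE transcript of the same gene.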

Additional observations from a re-analysis of the deposited data

Results flagged for a closer look

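Among 88 groups of 5 values (44 members in 2 groups), 6 held a sample far from the other 4, and chance gives about 1 in 20. Rsad2 was at 14.9 CPM in KSR23 replicate 3, on 267 counts, against 5.25 to 6.34 CPM in the other KSR23 mice. That library also had the highest sum of neutrophil markers, and whether the 2 are linked was not tested. Dtx3l was at 5.57 CPM in KSR23 replicate 2 against 7.79 to 8.57 CPM in the others. Herc6 was at 3.76 CPM in KSR23 replicate 4 against 4.77 to 4.83 CPM, and at 4.22 CPM in WT replicate 3 against 2.87 to 3.20 CPM. WT replicate 4 had 5.098 CPM of Eif2ak2, where the other WT mice had 6.11 to 6.39 CPM. WT replicate 3 had 0.738 CPM of Oas3 (21 counts), where the other WT mice had 0 to 0.161 CPM.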

How the results depend on the processing

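Of the 32 called members, 28 kept their call and direction in all 19 alternatives, 4 (Stat2, Dhx58, Herc6 and Trim30a) lost the call in at least 1, and none turned. Of the 9 not called, Ifih1, Znfx1 and Rsad2 were called in at least 1. The log2 FC of Eif2ak2 was -0.0103 to 0.0982 with each mouse left out, below 0 without KSR23 replicate 1, and that of Trim25 was -0.0039 without WT replicates 1 and 2 together, and neither was called there. With each mouse left out, 30 to 31 members were called higher, 1 to 2 lower, 14 to 17 passed a log2 FC of 1, their median log2 FC was 0.81 to 0.88, and 1846 to 2210 of all genes were called higher and 1651 to 1973 lower. Scaling by library totals alone gave a member median of 0.96 and 1161 of all genes called lower against 2049 with TMM, and the median was 0.76 without WT replicates 1 and 2 together. The replicate numbers name different mice, and same-numbered libraries did not deviate together (r from -0.111 to 0.066). With the replicate number as a block, 31 members were called higher and 1 lower, and 1998 and 1751 of all genes. Depth limits Oas3, Mx1 and Mx2. For the interferon genes, depth and the counting of near copies cannot be told apart.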
